A study of Homo sapiens with 6 samples.

Results

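PC9 cells adapted to 75 nM osimertinib were compared with PC9 cells adapted to 16 nM, with the cells adapted to 32 nM as the value between them. PC9 is a human lung adenocarcinoma line that carries an activating deletion in EGFR, and osimertinib is a covalent inhibitor of mutant EGFR. The span was chosen, with earlier results of these data known, as the one over which the adapted profile shifted most after the first dose, and its cells were then taken by the population suffix of each cell name, which gave 1320 cells at 75 nM, 1410 cells at 16 nM and 1097 cells at 32 nM, of 11258 PC9 cells in the deposited table. The study raised the osimertinib dose on drug-naive PC9 cells in steps (8, 16, 32, 75, 150, 300 and 600 nM and 1.2 µM) and kept an adapted population from each dose, an untreated control and persister cells that had been under 1.2 µM for 9 days. All 10 populations were tagged, pooled and read in 1 single-cell library with 3′ chemistry, so no difference below lies between libraries. Each dose is 1 culture. No test between doses is possible, no p-value is given, and each interval is a 95% exact binomial interval, unless said otherwise, that covers counting error only. A difference between these cultures cannot be told apart from a difference that any pair of cultures would show, and time in culture and dose cannot be told apart either.

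EGFR signals through RAS and MAP kinase and through PI3 kinase, and EGFR-mutant lung cancer cells held under an inhibitor can come to rely on other receptor tyrosine kinases, among them FGFR1, AXL and MET. HSP90AA1 encodes the stress-inducible cytosolic form of HSP90, a chaperone that folds many kinases, mutant EGFR included. KISS1 encodes the precursor of kisspeptin, a secreted peptide first known for holding back metastasis and later for its part in puberty. HSP90AA1, KISS1 and FGFR1 were picked as markers of the span from 16 to 75 nM with earlier results of these data known, so their levels are a description.

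The depth of the populations was close. The populations held 8897621, 7497766 and 9164979 unique molecular identifiers (UMIs, counted transcript molecules) at 16, 32 and 75 nM, with medians of 6116, 6533 and 6744 UMIs per cell. Mitochondrial genes took a median of 8.02% of the UMIs of a 75 nM cell and 8.06% of a 16 nM cell. Levels are counts per 1000000 UMIs of a population (CPM), and a gene without UMIs is below 0.327 CPM at 75 nM and 0.337 CPM at 16 nM. Genes that mark the PC9 line (EPCAM, CDH1, CLDN4, EGFR and the keratins of simple epithelia) summed to 10119 CPM at 75 nM and 11116 CPM at 16 nM, and all 8 were detected. Of 15 immune markers 8 were in the table, with summed levels of 28 CPM at 75 nM and 21.1 CPM at 16 nM, and CD68 was the only one of them at 10 CPM or more. Of 8 endothelial markers 7 were in the table, summing to 40.8 CPM at 75 nM and 49.1 CPM at 16 nM, most of it EGFL7. Of 9 fibroblast markers 3 were in the table and summed to 9.82 and 10.2 CPM at 75 and 16 nM. Melanocyte markers, those of the other line of the series, summed to 57.4 and 69.3 CPM, most of it MITF. The part of these marker levels in the results was not tested. No cell barcode carried more than 1 population suffix.

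A gene counted as measured in a comparison when its higher level was 10 CPM or more on no fewer than 20 UMIs. Of 9374 measured genes, 54 were at least 2-fold higher at 75 nM than at 16 nM (0.576%) and 69 at least 2-fold lower (0.736%), with ratios taken on the log2(CPM + 1) scale. The median log2 ratio of all measured genes was 0.02. The genes just inside the 2-fold line had log2 ratios of 1.0002 (MAP3K20) and -1.001 (S100P), and those just outside 0.998 (COL27A1) and -0.986 (NEK10). At 1.5-fold, 232 genes were higher (2.47%) and 243 lower (2.59%). Of the measured genes with a known position 54.3% had a log2 ratio above 0 and 45.7% one below 0. In 32 nM cells against 16 nM cells, 20 genes were at least 2-fold higher (0.214%) and 11 lower (0.118%) of 9354, and at 1.5-fold 91 were higher (0.973%) and 86 lower (0.919%). In 75 nM cells against 32 nM cells, 0 genes were at least 2-fold higher (0%) and 4 lower (0.0429%) of 9332, and at 1.5-fold the counts were 27 higher (0.289%) and 37 lower (0.396%). The steps share the 32 nM cells, and both share cells with the whole span.

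The root mean square log2 difference over measured genes was 0.312 for 75 nM against 16 nM. By step it was 0.490 for 8 nM against untreated cells, 0.172 for 16 nM against 8 nM, 0.218 for 32 nM against 16 nM and 0.174 for 75 nM against 32 nM, and the steps above 75 nM lay between 0.142 and 0.163. Since the span was chosen for the size of this shift, the order of the steps describes the choice and is no finding. The 32 nM cells stood between the ends for all 54 higher and all 69 lower genes. Their level lay at a median of 56.5% of the way from the 16 nM to the 75 nM level for the higher genes and 65.2% for the lower genes. No gene was at least 2-fold higher or lower at 32 nM than at both ends.

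The highest ratios were those of a methyltransferase, a surface protein and a stress protein. NNMT, which methylates nicotinamide, had 3.03, 13.5 and 27.5 CPM at 16, 32 and 75 nM. Its level was 9.06-fold higher at 75 nM than at 16 nM (interval 6.08 to 14), and it rests on 252 UMIs at 75 nM and 27 at 16 nM. TENM2, a teneurin of the cell surface known from synapses, had 27.1, 101 and 160 CPM and was 5.90-fold higher (5.14 to 6.79). NUPR1, a small stress-induced nuclear protein, had 14.7, 40.9 and 80.5 CPM and was 5.47-fold higher (4.54 to 6.64). In all 3 genes the populations keep the order of dose, and no counting interval of one dose reaches into that of the next.

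KISS1, at chromosome 1, 204190341 to 204196486 (GRCh38), had 61.3, 176 and 257 CPM at 16, 32 and 75 nM. Its level at 75 nM was 4.2-fold that at 16 nM (3.83 to 4.62). Untreated cells had 23 CPM and 8 nM cells 43.7 CPM, and past the span the level was 299, 273, 291 and 344 CPM at 150, 300, 600 nM and 1.2 µM. Persister cells had 20.4 CPM, near the untreated value. Up to 150 nM the level was thus higher at each dose than at the one before, at 300 and 600 nM it was below the 150 nM level, and the step from 16 to 32 nM, 2.88-fold, was the steepest of those within the span.

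FGFR1, a receptor tyrosine kinase for fibroblast growth factors on chromosome 8, had 13.1, 34.8 and 41.9 CPM at 16, 32 and 75 nM, after 11.7 CPM in untreated and 6.04 CPM in 8 nM cells. It was 3.19-fold higher at 75 nM than at 16 nM (2.58 to 3.95), and 75.3% of that difference was present at 32 nM. Above the span it stayed level, with 40.6 CPM at 150 nM and 40.7 CPM at 1.2 µM. IGFN1, a muscle protein gene, had the same shape, with 20.9, 52.9 and 60.3 CPM at 16, 32 and 75 nM. Among cells that the authors list in a deposited cell table, the log2 ratio of 75 nM over 16 nM was 2.43 for FGFR1 and 2.76 for IGFN1, against 1.60 and 1.49 in all cells. DGKI, a diacylglycerol kinase, was 3.69-fold higher (2.94 to 4.67), and unlike the genes above it was lower again at the top dose, with 39.8 CPM at 75 nM and 19.5 CPM at 1.2 µM. FRMD4A, a scaffold of cell polarity, had 51.6, 110 and 170 CPM at 16, 32 and 75 nM and 271 CPM at 1.2 µM. The other highest ratios were those of APOE, a lipid carrier (3.48-fold), TNNT2, a troponin of heart muscle (3.37-fold), MAPT, the microtubule protein tau (3.36-fold), and RFLNB, a filamin-binding protein (3.12-fold).

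**Figure D1:**
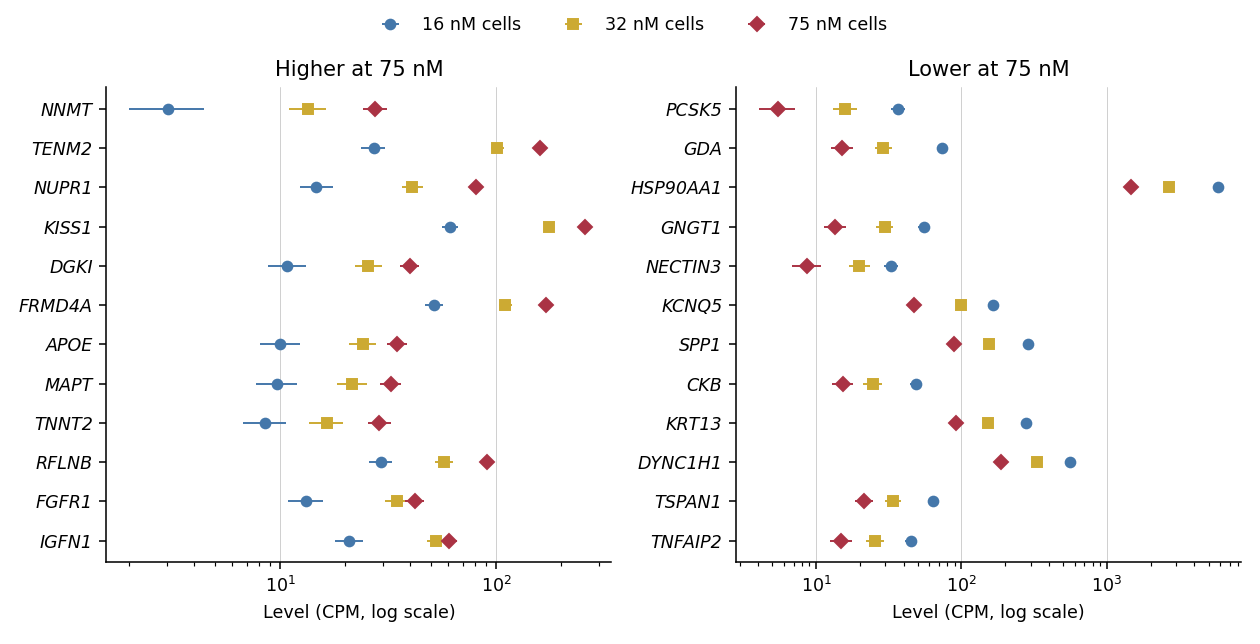
Levels of 24 genes, the 12 highest and 12 lowest by log2 ratio of 75 nM against 16 nM among genes with at least 25 CPM, as CPM on a log axis, with 95% Poisson counting intervals. The 32 nM cells lie between the other populations for all 24 genes, for example KISS1 with 61.3, 176 and 257 CPM and HSP90AA1 with 5771, 2676 and 1455 CPM at 16, 32 and 75 nM.

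The lower genes included a protease, a metabolic enzyme and several surface and secreted proteins. PCSK5, a proprotein convertase on chromosome 9, had 36.4, 15.9 and 5.46 CPM at 16, 32 and 75 nM and was 6.67 times lower at 75 nM than at 16 nM (4.94 to 9.18). GDA, guanine deaminase of purine breakdown, also on chromosome 9, had 73.6, 29.1 and 15.2 CPM and was 4.85 times lower (4.04 to 5.87), while persister cells had 184 CPM and untreated cells 87.1 CPM. KCNQ5, a potassium channel, had 164, 99.0 and 47.4 CPM at 16, 32 and 75 nM and 19.9 CPM at 150 nM, so that it was lower with each of these steps. Its log2 ratio of 75 nM over 16 nM was -1.77 in all cells and -1.14 in the cells of the authors' table. GNGT1, a G protein gamma subunit of the retina, had 55.1, 29.6 and 13.5 CPM at 16, 32 and 75 nM. NECTIN3, an adhesion protein, had 32.8, 19.9 and 8.62 CPM, and TSPAN1, a tetraspanin, had 63.8, 33.9 and 21.5 CPM at the same doses.

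SPP1, which encodes the secreted matrix protein osteopontin, had 88.4 CPM at 75 nM and 287 CPM at 16 nM, 3.25 times lower at 75 nM (3 to 3.52). LCN2, a secreted iron-carrying lipocalin and an NF-kappaB target, had 322 CPM at 75 nM and 754 CPM at 16 nM, against 878 CPM in untreated cells and 4379 CPM in persister cells. KRT13, a keratin of stratified epithelia, had 91.7 CPM at 75 nM and 279 CPM at 16 nM. FN1, fibronectin, had 79.4 CPM at 75 nM and 184 CPM at 16 nM, against 32.6 CPM in untreated and 308 CPM in persister cells. Among genes singled out by the size of one step, OSR2, a zinc finger factor, was 2.59 times lower at 75 nM than at 16 nM, and ADIRF, a factor of fat cell formation, 2.57 times lower. EGFR itself, the drug target, had 631 CPM at 75 nM and 827 CPM at 16 nM, a 1.31 times lower level (1.26 to 1.36).

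The sequences upstream of 3 of these genes are shown because they cover both directions. KISS1 is a higher gene that marks the span. SPP1 and LCN2 are the secreted genes with the most UMIs among the lower ones described above. Each line gives the 250 bases before the RefSeq start (GRCh38.p14), 5′ to 3′ on the gene's strand, with the matches to the searched motifs in capitals.
KISS1: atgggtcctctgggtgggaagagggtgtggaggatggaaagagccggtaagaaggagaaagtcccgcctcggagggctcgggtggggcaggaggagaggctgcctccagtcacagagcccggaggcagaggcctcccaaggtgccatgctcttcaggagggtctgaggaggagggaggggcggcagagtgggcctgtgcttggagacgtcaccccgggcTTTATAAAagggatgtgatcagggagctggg
LCN2: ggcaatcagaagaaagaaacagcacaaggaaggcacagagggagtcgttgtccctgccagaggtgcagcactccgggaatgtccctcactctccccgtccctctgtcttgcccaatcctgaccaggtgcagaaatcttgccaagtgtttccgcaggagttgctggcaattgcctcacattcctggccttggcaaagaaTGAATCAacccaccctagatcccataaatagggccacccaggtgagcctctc
SPP1: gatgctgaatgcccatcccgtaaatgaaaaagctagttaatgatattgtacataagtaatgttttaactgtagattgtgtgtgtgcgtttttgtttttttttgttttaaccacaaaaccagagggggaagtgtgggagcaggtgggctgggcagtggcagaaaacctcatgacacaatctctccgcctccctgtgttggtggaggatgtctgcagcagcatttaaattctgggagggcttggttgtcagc
The KISS1 window is chr1:204196492-204196741 on the minus strand, that of LCN2 chr9:128149203-128149452 and that of SPP1 chr4:87975464-87975713, both on the plus strand. Searched on both strands were the TATA box TATAAA, the AP-1 site TGANTCA, the composite ATF4 and C/EBP site TGATGNAA and the heat shock element. The KISS1 window holds TATAAA starting 29 bases before the RefSeq start, and the same motif read on the other strand overlaps it. The LCN2 window holds an AP-1 match starting 52 bases before the start, and none of the searched motifs is in the SPP1 window. Of the 54 higher genes 38 had a promoter in the table, 4 of them with a TATA box and 2 with an AP-1 match, and of the 69 lower genes 56 had one, 6 with a TATA box and 4 with an AP-1 match. The share among all 27305 promoters was 11.1% for the TATA box, 6.60% for the AP-1 site, 3.19% for the composite site and 0.439% for the heat shock element. The counts come from transcript ends, which do not show which start a cell used.

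HSP90AA1, at chromosome 14, 102080738 to 102139699 (GRCh38, minus strand), was the most abundant of the 24 genes plotted. It had 5771, 2676 and 1455 CPM at 16, 32 and 75 nM. Below the span untreated cells had 9061 CPM and 8 nM cells 6521 CPM, above it 150 nM cells had 1359 CPM and 1.2 µM cells 1381 CPM, and persister cells had 4223 CPM. It was 3.97 times lower at 75 nM than at 16 nM (3.89 to 4.04), on 13335 and 51352 UMIs. The level was lower with each step up to 75 nM and flat above it. HSP90AB1, the constitutive cytosolic form, had 1908 CPM at 75 nM and 2074 CPM at 16 nM. HSP90B1, the form of the endoplasmic reticulum, had 339.9 CPM at 75 nM and 461.6 CPM at 16 nM. The sequences of HSP90AA1 and HSP90AB1 are alike, and how reads that match both were counted is not given in the sources used here. Of 26 chaperone genes measured, 2 were at least 2-fold lower, HSP90AA1 and AHSA1, an activator of the HSP90 ATPase, with 120 CPM at 75 nM and 258 CPM at 16 nM, and 0 were higher, beside 0.736% and 0.576% of all measured genes. HSP90AA1 and AHSA1 lie in the 2 low stretches of chromosome 14 described next. The median of the list was -0.17, against 0.02 over all measured genes.

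The low level of HSP90AA1 was shared by the genes beside it. A list of 25 genes along chromosome 14 around HSP90AA1, drawn up with earlier results of these data known, had 24 members in the table and 22 measured. HSP90AA1 itself is among the 22. Of the 22, 19 were at least 2-fold lower at 75 nM than at 16 nM, HSP90AA1 included, against 0.736% of all measured genes. The median log2 ratio over the 22 was -1.32, against 0.02 over all measured genes. The listed genes lie between positions 101761798 and 103733668. The median was -0.73 for 32 nM against 16 nM, -0.58 for 75 nM against 32 nM, -0.23 for 8 nM against untreated cells and -0.11 for 1.2 µM against 75 nM. DYNC1H1, the heavy chain of cytoplasmic dynein, had 554, 332 and 188 CPM at 16, 32 and 75 nM. EIF5, an initiation factor of translation, had 449, 309 and 209 CPM, and TRAF3, an adaptor of immune receptors, had 139, 93.6 and 61.4 CPM at the same doses. CKB, a creatine kinase, was 3.18 times lower at 75 nM than at 16 nM, TNFAIP2, an NF-kappaB target, 3.01 times lower, and XRCC3, a gene of recombination repair, 5.81 times lower (3.99 to 8.68). Neighbours such as KLC1, APOPT1 and BAG5 overlap one another or lie close, and reads in shared sequence may count for either.

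The block had exceptions within it, and its edges follow from how the list was drawn up. Of the measured list members, ZNF839 had 10.4 CPM at 75 nM and 8.09 CPM at 16 nM, CINP 25.1 and 27.0 CPM, and MOK 41.9 and 65.3 CPM, so that these 3 stood apart from the 19. Of the 10 measured genes next to the list on the centromeric side 0 were 2-fold lower, and their median was 0.09. The nearest of them, WARS, ends at position 100376805, and no measured gene lies between it and the list. On the telomeric side the 10 nearest had a median of -0.12, and 0 were 2-fold lower. The closest of these, PPP1R13B and ATP5MPL, had log2 ratios of -0.32 and -0.42. Farther out CRIP2 and CRIP1 were low again, with log2 ratios of -0.75 and -1.05. Without HSP90AA1 the other 21 measured members summed to 2587, 1612 and 1068 CPM at 16, 32 and 75 nM. Untreated cells had 2905 CPM and 8 nM cells 2671 CPM, the 150 nM cells had 991 CPM and the 1.2 µM cells 959 CPM, and persister cells had 2585 CPM. Relative to 16 nM cells, the neighbours thus stood at 112% in untreated, 103% in 8 nM and 99.9% in persister cells, and HSP90AA1 at 157%, 113% and 73.2% in the same populations.

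A second stretch of chromosome 14 was lower at 75 nM, some 24 Mb before HSP90AA1. It was picked after its values were seen, so its counts describe it and test nothing. It runs from ALDH6A1 at position 74056850 to the end of ADCK1 at 77935012 and holds 37 measured genes, 34 of them lower at 75 nM than at 16 nM, 25 by at least 1.5-fold and 2 by at least 2-fold. The background at 1.5-fold was 2.59% of all measured genes. The median log2 ratio was -0.70, and it was -0.46 for 32 nM against 16 nM, -0.22 for 75 nM against 32 nM and 0.08 for 8 nM against untreated cells. AHSA1 and NPC2, a cholesterol carrier of the lysosome with 196 CPM at 75 nM and 402 CPM at 16 nM, are the 2-fold lower genes of this stretch. TMED10, a carrier protein of the secretory pathway, had 170 CPM at 75 nM and 313 CPM at 16 nM, and SLIRP, which steadies mitochondrial RNA, had 250 and 428 CPM. FOS, the AP-1 subunit, lies in the stretch with 55.9 CPM at 75 nM and 75.3 CPM at 16 nM. FLVCR2, TTLL5 and ERG28 sit side by side within it and were not lower, with log2 ratios of 0.43, 0.09 and 0.21. The 10 measured genes before the stretch had a median of 0.38, with all 10 above 0, and the 10 after it a median of 0.18. DIO2, the enzyme that activates thyroid hormone, is the first measured gene after it and had 229 CPM at 75 nM and 81.6 CPM at 16 nM.

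**Figure D2:**
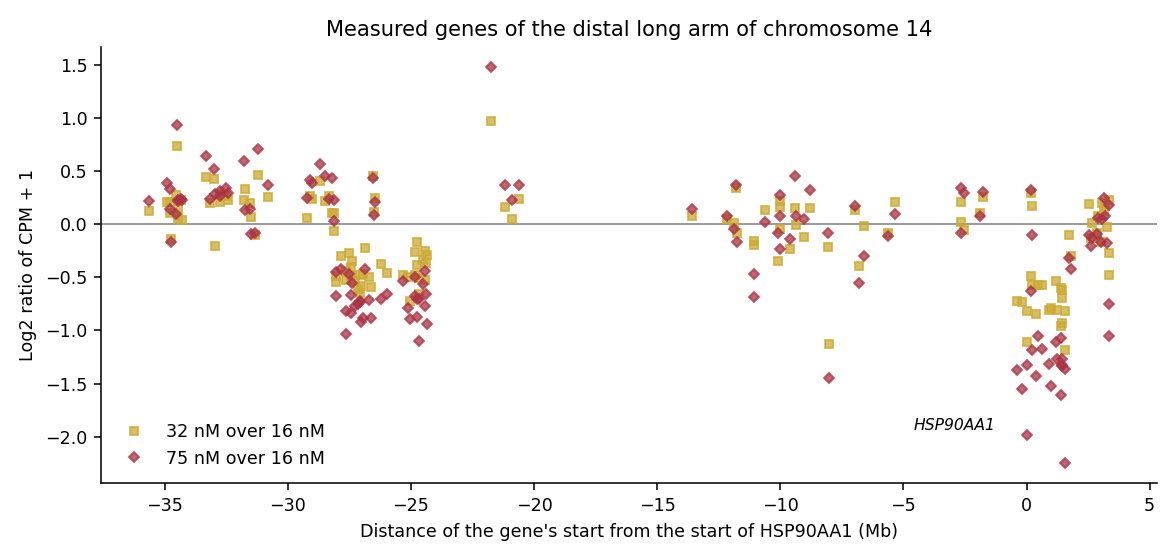
Log2 ratio of CPM + 1 for each measured gene of distal chromosome 14, by the distance of its start from the start of HSP90AA1 in Mb, for 32 nM and 75 nM cells over 16 nM cells. Genes between ALDH6A1 and ADCK1 had a median of -0.70 at 75 nM. The listed genes around HSP90AA1, itself included, had a median of -1.32. These 2 low groups had ratios at 32 nM between 0 and those at 75 nM for most of their genes.

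Other chromosomes differed as a whole or in one part. The median log2 ratio of 75 nM against 16 nM was 0.28 on chromosome 21, where 79 of 87 measured genes were above 0, beside 54.3% of all measured genes. It was -0.30 over the 274 measured genes of chromosome 3 that start below 110 Mb, 257 of them below 0, and -0.04 over the 267 genes beyond. On chromosome 9 it was -0.23 over the 299 genes that start from 60 Mb on, 268 of them below 0, and 0.04 over the 83 genes before. Over all measured genes 45.7% were below 0. PCSK5, GDA and LCN2 lie in that second part of chromosome 9, and NECTIN3 is the first measured gene beyond 110 Mb on chromosome 3. Of 270 bins of 10 Mb with at least 10 measured genes, 30 had a median at or below -0.2, 17 of them on chromosomes 3, 9 and 14, and 13 had a median at or above 0.2. Low bins thus lay on other chromosomes too, among them 12 (90 to 100 Mb, -0.34), 5 (10 to 20 Mb, -0.33) and 8 (110 to 120 Mb, -0.28). The highest bin was on chromosome 1 (60 to 70 Mb, 0.38). The boundaries on chromosomes 3 and 9 too were chosen after the values were seen, and gene copy number was not measured.

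By their medians the same stretches were near level from untreated to 8 nM cells and from 150 nM to 1.2 µM. For 8 nM against untreated cells the medians were 0.08 for ALDH6A1 to ADCK1, -0.03 for the second part of chromosome 9 and -0.06 for chromosome 21. For 1.2 µM against 150 nM, populations that share no cells with the span, they were -0.02, -0.02 and 0.02 for the same 3, and -0.04 for the first part of chromosome 3. For persister against untreated cells they were 0.03, -0.25 and -0.14 for the same 3 and -0.01 for the first part of chromosome 3, so that the second part of chromosome 9 was lower there as well by its median. The summed level of the stretch from ALDH6A1 to ADCK1 was 74.1% of the 16 nM level at 32 nM, 61.2% at 75 nM and 59.4% at 1.2 µM. That of the first part of chromosome 3 was 88.9%, 79.1% and 73.2% at the same doses, and that of chromosome 21 was 111%, 122% and 127%. The first part of chromosome 3 was at 106% in untreated cells, 103% at 8 nM and 74.9% at 150 nM. Its summed level was thus lower with steps outside the span too.

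**Figure D3:**
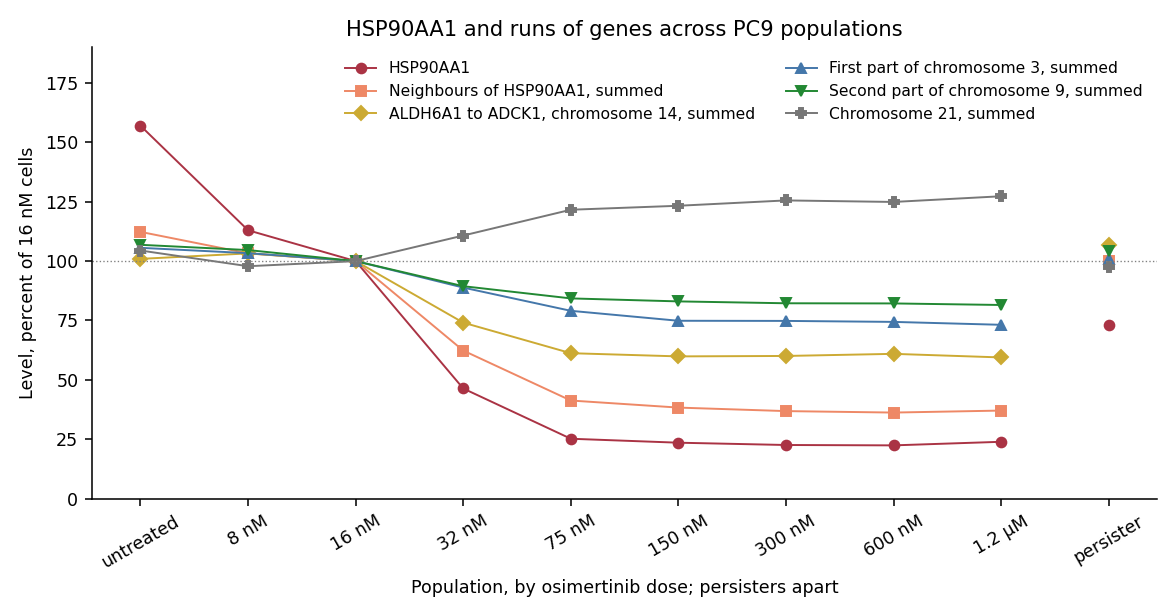
Level of HSP90AA1 and summed levels of its 21 measured neighbours and of 4 runs of genes in the 10 PC9 populations, as percent of the level in 16 nM cells. HSP90AA1 was at 25.2% and its neighbours at 41.3% in 75 nM cells. From 75 nM to 1.2 µM the curves were flat or nearly so, with the first part of chromosome 3 at 79.1% and 73.2%.

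Per cell, HSP90AA1 spread most at 32 nM. The median cell had 5177 CPM at 16 nM, 1906 CPM at 32 nM and 1224 CPM at 75 nM, and the interquartile range on the log2 scale was 1.21, 1.5 and 0.99 in that order of dose. A line at 2800 CPM, set after the values were seen, had 21% of 16 nM cells below it (18.9 to 23.2), 67.6% of 32 nM cells (64.8 to 70.4) and 93.1% of 75 nM cells (91.6 to 94.4). Among untreated cells 5.25% were below the line, at 150 nM 96.2% and among persister cells 28.4%. The line cuts a continuous range: 12.2%, 17.0% and 8.03% of the cells at 16, 32 and 75 nM lay within 20% of it. The median depth differed in both directions, with 6831 UMIs below and 5862 above the line at 75 nM, and 5574.5 below and 6241.5 above it at 16 nM.

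**Figure D4:**
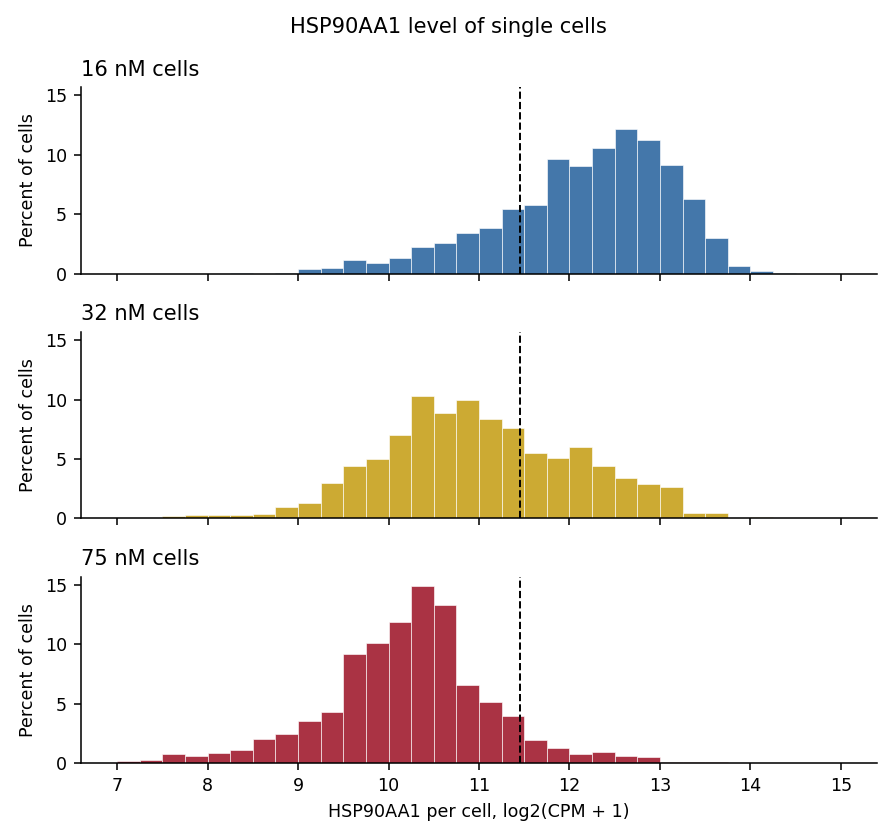
Share of cells by HSP90AA1 level, as log2(CPM + 1) in bins of 0.25, at 16, 32 and 75 nM. The dashed line stands at 2800 CPM, and 4, 11 and 27 cells without an HSP90AA1 UMI are off the axis. At 16, 32 and 75 nM the line has 21%, 67.6% and 93.1% of the cells below it, and the 32 nM cells fill both ranges.

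Cells below the line also had less of both low stretches of chromosome 14, at every dose of the span. The neighbours of HSP90AA1 summed to 1441 CPM below and 2853 CPM above the line at 16 nM, to 1178 and 2597 CPM at 32 nM, and to 985 and 2365 CPM at 75 nM. The stretch from ALDH6A1 to ADCK1, more than 20 Mb away, summed to 2471 CPM below and 3994 CPM above the line at 16 nM, to 2211 and 3962 CPM at 32 nM, and to 2190 and 3516 CPM at 75 nM. The genes beside that stretch went the other way. The 10 measured genes before ALDH6A1 summed to 700 CPM below and 578 CPM above the line at 16 nM and to 804 and 632 CPM at 75 nM, and the 10 after ADCK1 to 641 and 584 CPM at 16 nM and to 757 and 606 CPM at 75 nM. In the sums of the low stretches, cells on the same side of the line were closer to each other across doses than cells on opposite sides at 1 dose. HSP90AB1, on chromosome 6, had 1909 CPM below and 1898 CPM above the line at 75 nM and 2072 and 2074 CPM at 16 nM. EGFR had 626 and 715 CPM at 75 nM and 844 and 823 CPM at 16 nM. Across cells, Pearson's r between HSP90AA1 and the summed neighbours was 0.49 at 16 nM (1410 cells), 0.36 at 32 nM (1097 cells) and 0.20 at 75 nM (1320 cells). The 2 values share each cell's total, and r is a description only.

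The first part of chromosome 3 and chromosome 21 differed less between these cells at 16 nM. The median log2 ratio of cells below over cells above the line was -0.07 at 16 nM, -0.16 at 32 nM and -0.24 at 75 nM for the first part of chromosome 3, and 0.18, 0.29 and 0.30 for chromosome 21, beside 0.04 to 0.06 over all measured genes. For the stretch from ALDH6A1 to ADCK1 it was -0.62, -0.75 and -0.64.

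The genes that differed over the span differed more, by their medians, among cells below the line than among cells above it. Among cells below the line, all 54 higher and all 50 lower genes outside the chromosome 14 list kept their direction at 75 nM against 16 nM, 32 and 36 of them by at least 2-fold. Among cells above the line 48 and 39 did, 21 and 9 of them by at least 2-fold. Over all 9374 measured genes 124 were at least 2-fold apart, in the direction of the whole populations, below the line and 252 above it. KISS1 had 264 CPM below the line at 75 nM and 105 CPM below the line at 16 nM, and 157 and 51.0 CPM above it. TENM2 had 166 and 50.6 CPM below the line at 75 and 16 nM, and 65.2 and 21.6 CPM above it. GDA had 13.2 CPM below the line at 75 nM and 72.0 CPM at 16 nM, and 45.2 and 74.0 CPM above it, so that at 16 nM it did not track HSP90AA1. FGFR1 had 43.2 CPM below the line at 75 nM and 29.2 CPM at 16 nM, and 21.7 and 9.42 CPM above it. Unlike the medians, the ratios of KISS1 and FGFR1 at 75 nM over 16 nM were by these values larger above the line than below it. LCN2 had 282 CPM at 75 nM and 549.5 CPM at 16 nM below the line but 936 and 802 CPM above it, and FN1 had 71.4 and 142 CPM below it and 205 and 194 CPM above it. Above the line C3 had 16.3 and 11.5 CPM at 75 and 16 nM, and S100P, a calcium-binding protein, 88.7 and 82.3 CPM. The 75 nM cells above the line held 552544 UMIs in all, and no counting interval was taken for these values. The small differences of FN1, C3 and S100P above the line therefore give no direction. The 21 neighbours of HSP90AA1 had medians of -0.54 below and -0.29 above the line, with 0 and 1 at least 2-fold lower. Over the 54 higher genes the median log2 ratio of 75 nM over 16 nM was 1.08 among cells below the line and 0.82 among cells above it, and over the 50 lower genes outside the chromosome 14 list -1.35 and -0.51. These genes were chosen by the same contrast, and only 91 cells at 75 nM were above the line. At 32 nM, a population that the choice did not use, cells below over cells above the line had medians of 0.84 and -0.93 for the same sets, beside 0.06 over all measured genes.

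The share of cells with a UMI was compared after each cell was thinned to 3719 UMIs, which left out 119 shallower cells at 75 nM and 161 at 16 nM. KISS1 was then seen in 16.3% of 16 nM cells (14.2 to 18.4), 35.9% of 32 nM cells and 51.3% of 75 nM cells (48.4 to 54.2), and in 5.32% of persister and 6.46% of untreated cells. Without thinning the shares were 63.4% at 75 nM and 22.8% at 16 nM. Thinned to 7438 UMIs instead, which left 528 cells at 75 nM and 416 at 16 nM, they were 81.1% and 30.3%, so that the size of a share depends on that depth. TENM2 was seen in 37.9% of 75 nM and 7.69% of 16 nM cells, with 2.10% in untreated cells as the lowest of the populations compared. NUPR1 was seen in 25.6% of 75 nM and 5.20% of 16 nM cells, with 1.13% in untreated cells. FGFR1 was seen in 13.1% of 75 nM and 3.84% of 16 nM cells, and the 16 nM share is close to the 3.71% of untreated cells. GDA was seen in 4.83% of 75 nM and 22.2% of 16 nM cells. KISS1 and TENM2 thus had at least 1 UMI in more cells at 75 nM than at 16 nM. At a fixed depth a higher level gives a higher share by itself, so these shares restate the CPM in part. Free RNA in the droplets gives a background share that was not measured apart.

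The authors' cell table assigns 528, 414 and 505 of the cells at 16, 32 and 75 nM to 5 clusters. The name of the deposited table marks it as one of G1 cells, and how they were called is not given in the sources used here. The 53 listed genes of G2 and M phase summed to 1885 CPM in the table's cells at 75 nM and 1754 CPM at 16 nM, against 8995 and 7740 CPM in the cells it leaves out. Cluster 2 held 85.0% of listed 16 nM cells (81.7 to 88.0), 50.5% of 32 nM cells and 21% of 75 nM cells (17.5 to 24.8). Cluster 3 held 40.6% at 75 nM and 10.8% at 16 nM, and cluster 4 32.1% at 75 nM and 1.33% at 16 nM. Cluster 1, which holds most persister cells, took 6.34% and 2.27%. Cluster 0, which holds most untreated cells, had 0 of 505 cells at 75 nM, with an exact upper bound of 0.728%, and 3 of 528 at 16 nM.

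KISS1 and HSP90AA1 differed between these clusters at 1 dose. At 75 nM, KISS1 had 269 CPM in cluster 3, 132 CPM in cluster 4 and 76.0 CPM in cluster 2. NUPR1 had 57.8, 162 and 133 CPM in clusters 3, 4 and 2, and HSP90AA1 had 1364, 1087 and 2052 CPM in the same order. At 16 nM, KISS1 had 152 CPM in cluster 3 and 31.6 CPM in cluster 2. Within cluster 2, 21.4% of 16 nM cells, 44.5% of 32 nM cells and 76.4% of 75 nM cells were below the HSP90AA1 line. The authors clustered the cells on their expression, so these values describe the clusters.

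**Figure D5:**
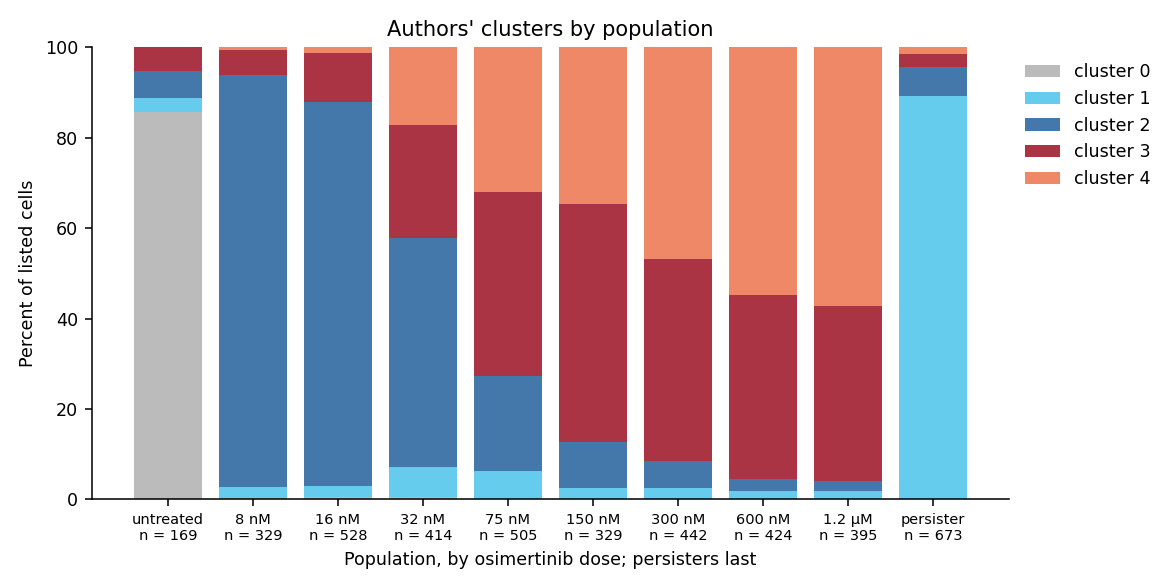
Share of the listed cells of each PC9 population in each of the authors' 5 clusters, with the number of listed cells under each bar. Cluster 2 held 85.0%, 50.5% and 21% at 16, 32 and 75 nM, and clusters 3 and 4 together took most of the rest at 75 nM.

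Receptors and ligands that can stand in for EGFR differed in both directions. Of 29 listed, 16 were measured, with FGFR1 and FGF2 at least 2-fold higher and INSR and KITLG at least 2-fold lower at 75 nM, beside 0.576% and 0.736% of all measured genes, and a median of 0.24. At 1.5-fold 6 of the 16 were higher and 2 lower, beside 2.47% and 2.59% of all measured genes. Of the 16, 9 were above 0, beside 54.3% of all genes. FGF2, a ligand of FGFR1, had 19.6 CPM at 75 nM and 8.20 CPM at 16 nM. INSR, the insulin receptor, had 2.40 and 10.8 CPM, and KITLG, the ligand of the KIT receptor, had 15.6 and 32.8 CPM. AXL had 200 CPM at 75 nM and 140 CPM at 16 nM, and its ligand GAS6 had 81.1 and 47.4 CPM, both short of 2-fold. MET had 440 and 398 CPM. Of 9 measured EGFR family genes and ligands 0 were 2-fold apart, and TGFA, an EGFR ligand, had 28.9 CPM at 75 nM and 44.6 CPM at 16 nM. Of 14 measured genes of MAP kinase output 0 were 2-fold apart, among them DUSP4 with 21.6 and 24.3 CPM and FOSL1 with 252 and 156 CPM.

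Matrix and mesenchymal genes differed in both directions, with more of them on the higher side at 1.5-fold. Of 21 measured, 3 were at least 2-fold higher at 75 nM, the collagen genes COL4A2 and COL6A1 and the crosslinking enzyme LOX, and 2 at least 2-fold lower, VIM and FN1, beside 0.576% and 0.736% of all measured genes. At 1.5-fold 7 of the 21 were higher and 2 lower, beside 2.47% and 2.59% of all measured genes. Of the 21, 13 were above 0, beside 54.3% of all genes, and the median was 0.20. COL4A2 had 11.2 CPM at 75 nM and 3.93 CPM at 16 nM, COL6A1 31.9 and 15.2 CPM, and LOX 16.0 and 6.52 CPM. VIM, vimentin, was low in both, with 3.06 CPM at 75 nM and 10.0 CPM at 16 nM, and its log2 ratio was -1.44 in all cells and -2.26 in the cells of the authors' table. COL6A1 lies on chromosome 21. Of 22 measured epithelial adhesion genes 0 were 2-fold apart, 18 were below 0, beside 45.7% of all genes, and the median was -0.17. Among 12 measured keratins KRT13 was the only one 2-fold apart, on the lower side. At 1.5-fold 3 keratins were higher and 3 lower, beside 2.47% and 2.59% of all measured genes.

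No antigen presentation gene was 2-fold apart. Of 16 measured MHC class I genes 3 were at least 1.5-fold lower, beside 2.59% of all measured genes, 14 were below 0, beside 45.7%, and the median was -0.42. HLA-B, a class I heavy chain, had 135, 107 and 80.2 CPM at 16, 32 and 75 nM. B2M, the light chain shared by class I molecules, had 639 CPM at 75 nM and 856 CPM at 16 nM. HLA reads map to closely related genes, and how they were shared out is not given. Of 28 measured interferon genes 1 was 2-fold lower, beside 0.736% of all measured genes, 20 were below 0, beside 45.7%, and the median was -0.28. The lower gene was IFI27, an interferon-induced mitochondrial protein on chromosome 14, with 6.76 CPM at 75 nM and 20.1 CPM at 16 nM. The log2 ratio of IFI27 was -1.44 in all cells and -2.25 in the cells of the authors' table. IFIT1 and IFIT2, which bind foreign RNA, went the other way, with log2 ratios of 0.91 and 0.66.

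No cell cycle or cholesterol synthesis gene of the lists was 2-fold apart. Of 52 measured genes of G2 and M phase 2 were at least 1.5-fold higher, beside 2.47% of all measured genes. Of the same genes 48 were above 0, beside 54.3% of all genes, and the median was 0.23, or 0.11 in the cells of the authors' table. TOP2A, a topoisomerase of dividing cells, had 255 CPM at 75 nM and 169 CPM at 16 nM. Of 41 S-phase genes 0 were 1.5-fold apart and 31 were below 0, beside 45.7% of all genes, with a median of -0.15 that turned to 0.08 in the cells of the authors' table. Of 18 measured cholesterol synthesis genes 1 was at least 1.5-fold higher, beside 2.47% of all measured genes, and 16 were above 0, beside 54.3%. Their median was 0.23. DHCR7, the last enzyme of the pathway, had 59.5 and 39.1 CPM at 75 and 16 nM. Among 19 genes of the ATF4 stress response NUPR1 was the only one at least 2-fold higher, beside 0.576% of all measured genes. ATF4 itself had 149 CPM at 75 nM and 144 CPM at 16 nM. Of 10 measured complement genes SERPING1, an inhibitor of the first complement step, was 2.54-fold higher and C3, the central component, 3.34 times lower, both at levels of no more than 12.5 CPM in these cells.

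The persister cells offer a comparison that shares no cells with the span. Against untreated cells, 47 of the 54 genes higher at 75 nM were above 0 in persister cells (87.0%), with a median log2 ratio of 1.05, beside 47.5% of all measured genes and a median of -0.04. NUPR1 had 73.1 CPM in persister cells and 3.03 CPM in untreated cells, and APOE 47.1 and 6.35 CPM. KISS1 did not follow this, with 20.4 CPM in persister and 23 CPM in untreated cells, while TENM2 had 17.3 and 5.88 CPM. Of all 69 lower genes 37 were above 0 in persister cells (53.6%), with a median of 0.15. The 19 of them in the chromosome 14 list had 5 above 0 and a median of -0.42, and the 50 others 32 above 0 (64.0%) and a median of 0.43, LCN2, FN1 and GDA among them. Genes such as NNMT, with 1.14 CPM in untreated cells, were measured only through the dose where they are high. All measured genes are thus no matched background for these sets. At 8 nM against untreated cells 68.5% of the 54 and 70% of the 50 were already above 0, beside 51.8% of all measured genes.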

How the data were processed

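Per the labels' protocols, single cells of 10 PC9 populations were tagged, pooled and sequenced with a 3′ kit. The deposited table holds raw UMI counts per gene and cell, 15429 genes by 11258 cells, per the labels' description. Cell Ranger 7.0.0 and the GRCh38 build are named in the submitters' processing notes. The percent of mitochondrial UMIs and the cluster of 4208 cells are the authors' values, per the file headers. All cells were used, with no doublet caller.

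UMIs were summed per population and scaled to CPM. Ratios are log2(CPM + 1), with 10 CPM and 20 UMIs as minimum and 2-fold as threshold. With 1 culture per dose nothing was tested. Shares of cells depend on the depth to which cells were thinned, 3719 UMIs here. Named genes were the 12 highest and 12 lowest ratios with at least 25 CPM, the 3 markers and EGFR, up to 3 genes at 2-fold per list and up to 5 per step. Other genes named were chosen after their values were seen. The span and the 36 gene lists were chosen with earlier results of these data known. Positions came from GENCODE 29 by symbol, which placed 99.6% of measured genes, and promoters from RefSeq GRCh38.p14. Python 3.11.15, numpy 2.4.6, scipy 1.17.1, pandas 2.3.3 and edgeR 4.0.16 (TMM factors only) were used. On simulated data for 75 nM against 16 nM, 100 of 100 genes set 3-fold apart, 0 of 100 set 1.5-fold apart and 0 of 9003 unchanged genes passed 2-fold, and 95.7% of true folds lay in their interval. These counts were drawn from the summed 16 nM profile with Poisson error only, without variation between cells or cultures. They check the code and give no rate of false calls between cultures.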

Additional observations from a re-analysis of the deposited data

How the results depend on the processing

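No paired analysis was possible because each dose is 1 culture and no number pairs the cells. Counts are given as higher and lower genes for 75 nM against 16 nM, 32 nM against 16 nM and 75 nM against 32 nM, where they moved by more than 1.5 times from 54, 69, 20, 11, 0 and 4. With a pseudocount of 5 CPM there were 28 higher, then 8 higher and 3 lower, then 0 lower. With no CPM filter there were 114 and 127, 53 and 30, 13 and 27, and with a minimum of 50 CPM 12 and 27, 4 and 2, and 1 lower. A 3-fold threshold left 16 and 21, 3 and 1, and 0 lower, and a 1.5-fold threshold, added after the data were seen, gave 232 and 243, 91 and 86, 27 and 37. In the cells of the authors' table there were 104 higher, then 36 and 31, then 25 and 23. The mean of per-cell CPM gave 2 higher in the last comparison, cells under 10% mitochondrial UMIs also 2, and a random part of the cells 20 lower at 32 nM against 16 nM and 3 and 10 in the last. Thresholds and filters change these counts by construction, and for the cell subsets the cause was not tested.

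Over 11 settings none of the 40 named genes changed sign, the only genes whose ratios were recomputed one by one. Among these settings, no CPM filter and a minimum of 50 CPM change only which genes are measured, so they leave a gene's ratio as it was by construction. HSP90AA1 ranged from -2.02 to -1.72 and KISS1 from 1.96 to 2.13, and 8 genes moved by over 1.5 times in some setting. In the cells of the authors' table these were FGFR1 (2.43), IGFN1 (2.76), KCNQ5 (-1.14), IFI27 (-2.25) and VIM (-2.26), and with a pseudocount of 5 CPM NNMT (2.02), INSR (-1.09) and XRCC3 (-1.59). FGF2, SERPING1 and S100P stayed past 2-fold in 9 of 11, VIM, COL4A2, FN1, C3 and NPC2 in 10 of 11, and EGFR in 0. Of 34 list medians 11 crossed 0. In the cells of the authors' table S phase turned to 0.08, NF-kappaB targets to 0.04, complement to 0.12, TGF-beta targets to -0.14 and lung epithelial genes to -0.02. With a minimum of 50 CPM the EGFR family turned to -0.25 and MAP kinase output to -0.03. BCL2 family, S100 protein, IGF binding protein and endothelial medians also crossed 0. Thinned to 7438 in place of 3719 UMIs, all 15 shares of cells lay above their counting intervals, with the order of doses as before. In the cells of the authors' table the stretch from ALDH6A1 to ADCK1 had a median of -0.67, the first part of chromosome 3 -0.31 and chromosome 21 0.23. Scaling by TMM moved no call count by more than 1.5 times. Genes near 10 CPM rest on fewer than 100 UMIs, which limits their folds.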
